A study of Mus musculus with 6 samples.

Results

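The genes described here are 8 transcription factors that T cells use to read the strength of antigen receptor signalling: Egr1, Egr2 and Egr3, Nr4a1, Nr4a2 and Nr4a3, and Nfatc1 and Nfatc3. They were chosen by name, as the probe sets whose only annotated symbol is one of these genes, which gave 13 of the 22690 probe sets and 8 of the 12393 genes on the arrays. RNA was measured on 6 expression arrays from magnetically separated CD4+CD25+ regulatory T cells (Treg) of C57Bl/6 mice, 3 with the genotype fl-p300/Foxp3cre (p300-deleted) and 3 with Foxp3cre alone (control). Both groups thus carry the Cre recombinase driven from Foxp3, although the sample titles call the controls WT, and they differ by the floxed allele of p300, a histone acetyltransferase that acts as a coactivator of many transcription factors. No treatment, culture time or animal age is given in the labels. The samples are called independent, but nothing says that each came from its own animal, so the tests below take the differences among these 3 per group, technical or not, as their error. Whether p300 was lost could not be checked, because 0 probe sets are named for Ep300.

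When the T cell receptor is engaged, calcium entry activates the phosphatase calcineurin, which removes phosphates from NFAT proteins so that they enter the nucleus. The same signal, through ERK, SRF, MEF2 and CREB, switches on the immediate early genes of the Egr family, which encode zinc finger proteins, and of the Nr4a family, which encode orphan nuclear receptors. In Treg, NFAT proteins bind DNA together with Foxp3, Nr4a factors take part in the induction and upkeep of Foxp3, and Egr2 and Egr3 restrain T cell activation. MEF2, CREB and NFAT all recruit p300 or its paralogue CBP.

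The promoters of the Nr4a genes and of Egr2 are shown because they hold matches to the DNA elements that CREB and SRF bind. The sequences are from RefSeq, build GRCm38.p6. Entries were found for 5 of the 8 members (Egr2, Nr4a1, Nr4a2, Nr4a3 and Nfatc3). Each run gives the 250 bases before the annotated start, 5′ to 3′ on the gene's strand. Capitals mark TGACG, the core of the cyclic AMP response element (CRE), on either strand, and in Egr2 also the CArG box, the element bound by SRF. Of 5 overlapping or neighbouring Egr2 windows, one with the most of these matches is shown.
Nr4a1 promoter, chr15:101266596-101266845 (+ strand): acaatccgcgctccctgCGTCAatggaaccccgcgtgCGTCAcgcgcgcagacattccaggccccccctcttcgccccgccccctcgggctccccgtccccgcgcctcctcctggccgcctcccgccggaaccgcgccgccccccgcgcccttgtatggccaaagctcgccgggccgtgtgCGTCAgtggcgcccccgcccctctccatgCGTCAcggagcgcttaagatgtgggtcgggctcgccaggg
Nr4a2 promoter, chr2:57124004-57124253 (- strand): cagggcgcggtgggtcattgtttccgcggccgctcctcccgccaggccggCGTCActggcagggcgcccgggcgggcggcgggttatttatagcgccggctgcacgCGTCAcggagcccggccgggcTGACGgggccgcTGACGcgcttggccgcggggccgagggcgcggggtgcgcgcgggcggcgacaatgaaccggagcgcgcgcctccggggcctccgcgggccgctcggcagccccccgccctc
Nr4a3 promoter, chr4:48045055-48045304 (+ strand): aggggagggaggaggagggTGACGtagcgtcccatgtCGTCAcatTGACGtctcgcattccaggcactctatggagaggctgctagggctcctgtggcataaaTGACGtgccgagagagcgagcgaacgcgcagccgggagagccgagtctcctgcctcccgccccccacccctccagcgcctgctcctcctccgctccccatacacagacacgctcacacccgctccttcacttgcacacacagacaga
Egr2 promoter, chr10:67537619-67537868 (+ strand): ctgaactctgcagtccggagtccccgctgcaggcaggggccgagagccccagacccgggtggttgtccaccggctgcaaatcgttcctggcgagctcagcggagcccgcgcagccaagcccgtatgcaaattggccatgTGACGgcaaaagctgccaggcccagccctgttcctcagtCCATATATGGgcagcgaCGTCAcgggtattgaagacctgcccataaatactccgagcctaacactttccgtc
Each of the 3 Nr4a windows held 4 matches of TGACG, and the Egr2 window held 2. Of 32851 promoter windows of the same length, 17.8% held at least 1 match and 0.137% held 4 or more. The Nr4a1 matches began 233, 213, 69 and 40 bases before the start, those of Nr4a2 200, 144, 123 and 111 bases before it, and those of Nr4a3 231, 213, 205 and 147 bases before it. In Egr2 the CArG box, found in 1.47% of windows, began 72 bases before the start, between CRE cores at 111 and 55 bases. Nfatc3, which is not an immediate early gene, had 1 CRE core in one of its 2 windows and 0 in the other. Of the other elements searched on both strands, the Egr site GCGNGGGCG was found once each in Nr4a1 and Nr4a2 (4.70% of windows), and a MEF2 site in Nr4a2 alone among the windows shown (2.92%). The full CRE TGACGTCA (1.55%), the Nr4a response element AAAGGTCA (1.34%) and the AP-1 site TGANTCA (6.75%) had 0 matches in the 4 windows. The NFAT core GGAAA, present in 55.6% of windows, matched once each in Nr4a2 and Egr2. The elements may overlap each other, and a match of letters is a description, not a bound site.

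Markers of the arrays were read before the members. Cd3d, Cd3e and Cd3g, subunits of the T cell receptor complex, read at least 11.21 on all arrays, whose medians lay between 5.38 and 5.46 on the log2 scale. Foxp3, the lineage factor of Treg, read 9.35 to 9.63 in the controls but 2.57 to 3.15 with p300 deleted, no higher than the brightest bacterial control probe sets of those arrays (3.66 to 3.89). Only 1 probe set has Foxp3 as its sole symbol, so no second one could check this reading. The other T cell and Treg markers did not follow Foxp3. Of 17 tested, Foxp3 fell, 1 rose and 15 did not pass in limma, with 12 positive and 5 negative values. Without overlap, 7 lay above the controls and 2 (Foxp3 and Trat1) below them. Over all tested genes the groups did not overlap for 23.7%, in either direction. The one that rose was Izumo1r, the folate receptor family member FR4 that marks Treg, by 0.62 (limma adjusted p = 0.0459). The Treg surface proteins Gpr83, Ctla4 and Il2ra were at 0.32, 0.30 and 0.25, Nrp1 at 0.05 and Tnfrsf18 at -0.16, all without passing. Of the T cell markers, Cd4 was at 0.68, Trat1 at -0.38 and Zap70 at -0.11, also without passing. Genes that mark other cell types were read as well. Of 22 tested myeloid markers 19 had positive values and 0 passed the limma test described below (median 0.58, 11 higher and 1 lower with p under 0.05 before adjustment), and their mean, set against that of all arrays, was 1.15, -0.05 and 0.17 on p300-deleted 1 to 3, against -0.45, -0.76 and -0.06 on controls 1 to 3. Of 9 mast cell and basophil markers 6 rose (limma adjusted p of 0.0223 to 0.0486), and of 8 plasma cell markers 5 rose (0.0059 to 0.0479), where 0.991% of all tested genes rose. Whether the mast cell and plasma cell calls hold without single arrays or with the 18S covariate was not examined. Of 9 NK cell markers 1 rose in limma, Gzma, a protease of cytotoxic granules (0.73, adjusted p = 0.0445), with 4 higher and 1 lower at p under 0.05 before adjustment and Ncr1, an activating NK receptor, at 1.46 without passing (limma adjusted p = 0.0982). The mean of the NK markers was 0.38, 0.23 and -0.11 on p300-deleted 1 to 3, against -0.04, -0.38 and -0.08 on controls 1 to 3. Of 7 B cell markers 1 fell in limma, the transcription factor Spib (-0.95, adjusted p = 0.0368), and 6 did not pass. The calls of Izumo1r, Gzma and Spib were lost with the 18S covariate described below, and without most single arrays (without any but control 2 for Izumo1r, any but control 3 for Gzma, and without p300-deleted 2 or 3 or control 1 or 2 for Spib, adjusted p up to 0.198), while their differences kept their sign. The array highest in myeloid markers, p300-deleted 1, was also highest in the means of the mast cell, plasma cell, NK and B cell markers (0.90, 0.70, 0.38 and 0.25). It was the highest for Egr1 and, by its brighter probe set only, for Nr4a2, genes that myeloid cells express too. Whether these marker values came from other cells was not tested, nor was the part of such cells in the values of the 8 factors. Of the 2 measures of RNA degradation on the arrays, the 3′ minus 5′ difference of Gapdh set control 2 apart, at 0.59 against 0.06 to 0.23 on the other 5 arrays, and that of actin did not, at 0.46 against 0.29 to 0.43. In bulk samples, fewer cells expressing a gene and less RNA per cell cannot be told apart.

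None of the 8 factors passed the test between the genotypes. All 8 were bright enough to be tested, and 0 were called higher or lower in limma at an adjusted p under 0.05, where 1.72% of the 8675 tested genes were called (0.726% lower, 0.991% higher). Before adjustment 1 member, Egr1, had a p under 0.05, against 18.1% of all tested genes. The p300-deleted and control arrays overlapped for every member, whereas for 23.7% of tested genes they did not overlap. Differences are log2 values throughout, the mean of the p300-deleted arrays minus that of the controls. They ran from -0.10 (Egr3) to 0.39 (Egr1), with a median of 0.08 over the 8 members and -0.03 over all tested genes. The 95% interval of the difference lay inside a 2-fold change in either direction for each of the 8, as it did for 94.6% of tested genes, so the arrays bound the size of a change without showing that there was none.

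Egr1, a zinc finger factor induced within the first response to ERK signalling, read 11.35, 11.25 and 10.93 in p300-deleted arrays against 10.76, 10.56 and 11.05 in controls (log2 values of its 1 probe set). The values of p300-deleted 1 and 2 lay above all controls, while p300-deleted 3 lay below control 3. The means were 11.18 ± 0.22 (SD, n = 3) and 10.79 ± 0.25 (SD, n = 3), a difference of 0.39 (SE 0.16, limma adjusted p = 0.251). Its interval of 0.02 to 0.75 allows a level up to 1.68-fold higher. The difference was 0.27 without control 2, the lowest array, 0.52 without control 3, the highest control, and 0.22 when the average signal for 18S ribosomal RNA was a covariate.

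Egr2, which with Egr3 induces inhibitors of T cell receptor signalling, read 7.39, 7.47 and 7.14 in p300-deleted cells against 6.99, 7.17 and 7.52 in controls by the brighter of its 2 probe sets. The highest and the lowest of the 6 values were both controls. The difference was 0.11 (SE 0.16, limma adjusted p = 0.779, interval -0.25 to 0.46). Its further probe set, which correlated with the brighter one at r = 0.89 over the 6 arrays, read 6.66, 6.56 and 6.48 against 6.39, 6.55 and 6.73, a difference of 0.01.

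Egr3 read 5.87, 5.79 and 6.28 in p300-deleted cells against 6.25, 6.29 and 5.70 in controls (1 probe set). Here too the extremes were both controls, and the difference was -0.10 (SE 0.19, limma adjusted p = 0.829, interval -0.53 to 0.33). The difference was 0.0049 without control 2 and 0.19 with the 18S covariate, so it has no settled sign. The relatives of these factors in the same arrays gave little difference. Of Egr4, the Egr co-repressors Nab1 and Nab2, and Wt1, 3 were tested and 0 passed (0 also at an unadjusted p under 0.05), with Egr4 at 0.01, Nab1 at 0.02 and Nab2 at -0.10 (limma adjusted p of 0.972, 0.948 and 0.738). Nab2, itself an Egr target, read 8.71, 8.96 and 9.01 in p300-deleted cells against 9.06, 9.10 and 8.82 in controls.

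Nr4a1 (Nur77), widely used as a reporter of recent receptor engagement, read 10.21, 10.46 and 10.14 in p300-deleted cells against 10.52, 9.83 and 10.30 in controls (1 probe set). The controls enclosed the p300-deleted values on both sides. The means of 10.27 ± 0.17 (SD, n = 3) and 10.21 ± 0.35 (SD, n = 3) differed by 0.05 (SE 0.18, limma adjusted p = 0.914, interval -0.35 to 0.46). The difference turned to -0.14 without control 2 and was 0.20 without control 1.

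Nr4a2 (Nurr1) read 6.09, 5.92 and 5.57 in p300-deleted cells against 5.79, 5.33 and 5.80 in controls by the brighter of its 2 probe sets, a difference of 0.22 (SE 0.18, limma adjusted p = 0.568, interval -0.18 to 0.62). Control 2 was the lowest array, and without it the difference was 0.06, whereas without p300-deleted 3 it was 0.36. The further probe set differed by 0.08 and ran from 4.08 to 4.51 over the 6 arrays. It correlated with the brighter one only at r = 0.32, and its highest array was p300-deleted 3, where the brighter one was highest on p300-deleted 1.

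Nr4a3 (Nor1) read 4.81, 4.89 and 4.86 in p300-deleted cells against 5.05, 4.82 and 4.64 in controls. The p300-deleted arrays lay within the range of the controls, and the difference was 0.02 (SE 0.12, limma adjusted p = 0.965, interval -0.27 to 0.30). Its dimmer probe set, at 2.39 to 2.71, was the 1 probe set of the 13 that did not exceed every bacterial control probe set on each array. Those controls match no mouse transcript, and their brightest read 3.64 to 3.99, so this probe set carries no usable level. The other 12 lay above them on all 6 arrays.

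**Figure D1:**
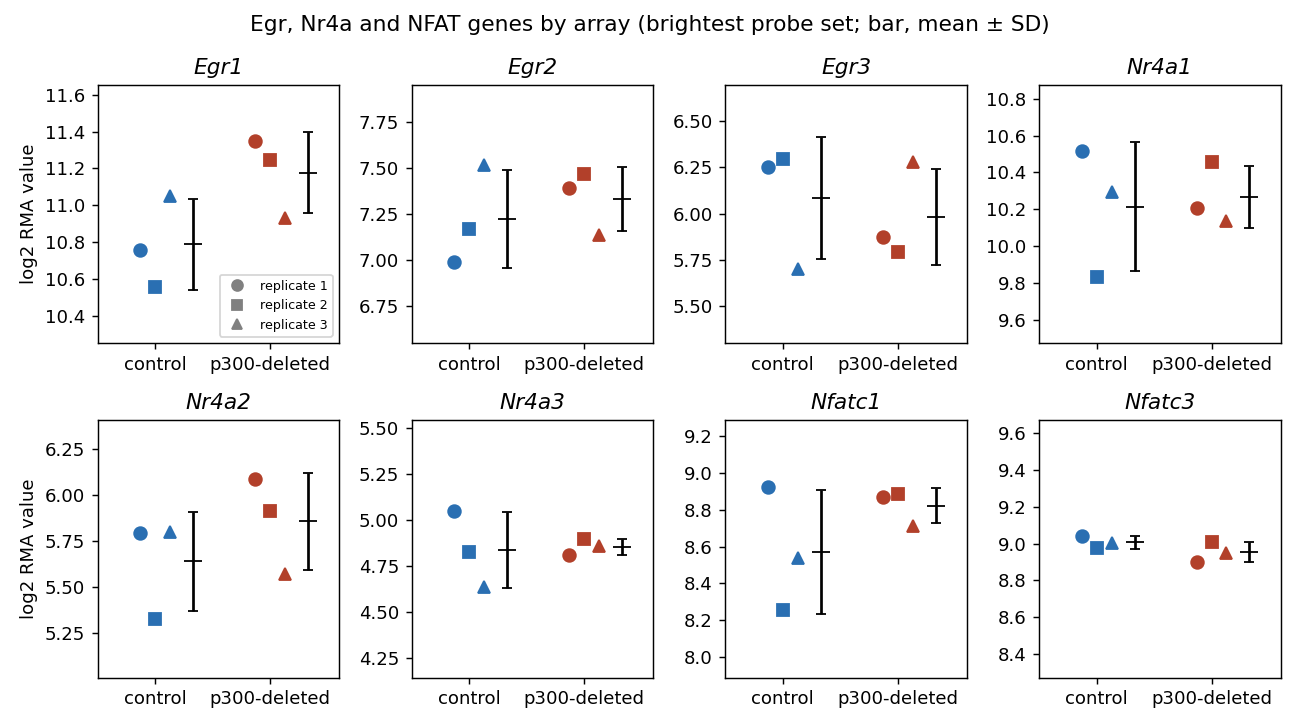
Log2 RMA values of the 8 genes by array, from the brightest probe set of each gene, with controls in blue and p300-deleted samples in red. Symbols mark the replicate number, the bar is the mean ± SD of 3 arrays, every panel spans the same range of log2 values, and no axis starts at 0. The groups overlap in all 8 panels, and in 4 of them (Egr1, Nr4a1, Nr4a2 and Nfatc1) control 2 is the lowest array.

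The NFAT genes were read by 2 probe sets each. Nfatc1, whose short isoform is induced by receptor signalling, read 8.87, 8.88 and 8.71 in p300-deleted cells against 8.92, 8.25 and 8.54 in controls. The highest and the lowest value were controls, the difference was 0.25 (SE 0.17, limma adjusted p = 0.478, interval -0.13 to 0.63), and it was 0.09 without control 2, the lowest array, and 0.43 without control 1, the highest. The dimmer probe set read 7.23, 7.07 and 7.30 against 6.91, 6.72 and 7.23, also a difference of 0.25. Both probe sets were lowest in control 2, but over the 6 arrays they correlated only at r = 0.42.

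Nfatc3, which is present before stimulation and controlled mainly by its phosphorylation, had the narrowest range. Its brighter probe set read 8.90, 9.01 and 8.95 in p300-deleted cells against 9.04, 8.98 and 9.001 in controls. The difference of -0.05 (SE 0.10, limma adjusted p = 0.822) had an interval of -0.27 to 0.17, which allows a level at most 1.21-fold lower or 1.12-fold higher. The other probe set did not follow it (r = -0.29). It read 8.25, 7.93 and 8.23 in p300-deleted cells against 7.83, 9.29 and 8.38 in controls, an SD of 0.74 in the controls, and differed by -0.36 (SE 0.31). This is the 1 member probe set whose interval, -1.08 to 0.35, reached past a 2-fold change. Both Nfatc3 probe sets carry a suffix for probes that can bind several transcripts, and which isoforms they read was not analysed here. When each probe set was fitted on its own, 0 of the 13 passed in limma (1, that of Egr1, at an unadjusted p under 0.05), against 0.455% of 22626 probe sets.

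**Figure D2:**
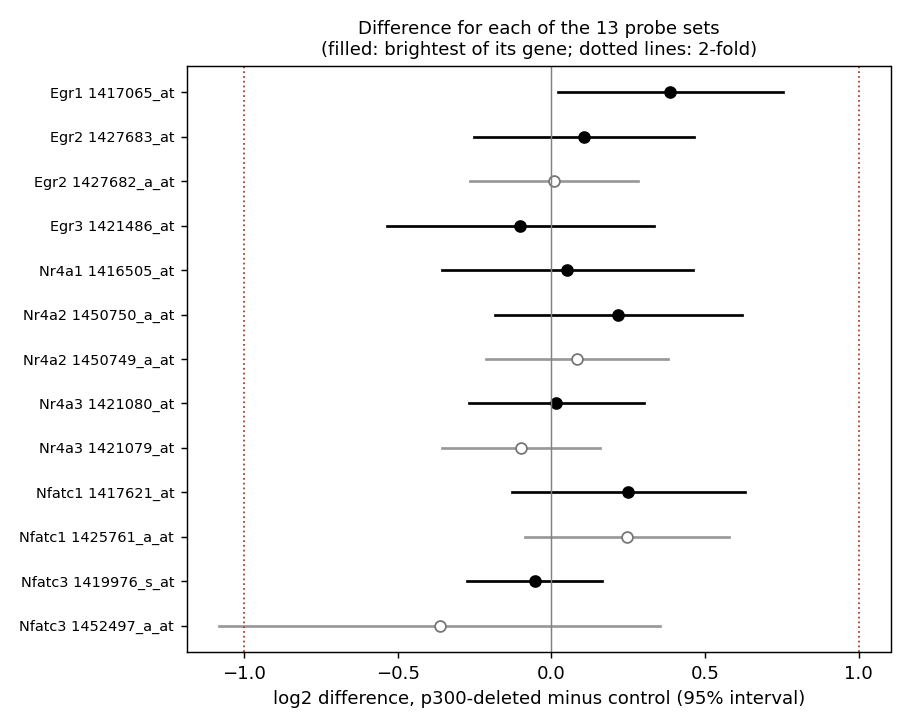
Difference between p300-deleted and control arrays for each of the 13 probe sets on the log2 scale (x axis), from the fit of all probe sets, with the 95% interval as a line. Filled points are the brightest probe set of a gene and dotted lines mark a 2-fold change. The interval of Egr1 begins just above 0 (adjusted p = 0.319 in this limma fit), the others include 0, and that of the dimmer Nfatc3 probe set is the widest.

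Among the remaining NFAT genes, 4 were tested and 0 passed in limma (1 with p under 0.05 before adjustment). Nfat5, the member of the family that answers to osmotic stress and is not controlled by calcineurin, had the largest difference. It read 7.99, 7.90 and 7.63 in p300-deleted cells against 7.44, 6.66 and 7.26 in controls, with no overlap, and differed by 0.72 (SE 0.20, limma adjusted p = 0.114). Nfatc2, Nfatc4 and the cofactor Nfatc2ip were at 0.11, 0.04 and -0.11.

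Of 30 listed genes of calcineurin, its regulators and store-operated calcium entry, 16 were tested and 0 passed in limma (1 higher and 3 lower with p under 0.05 before adjustment), 5 with positive and 11 with negative values (median -0.07). Stim1, the calcium sensor of the endoplasmic reticulum, was at -0.41 (limma adjusted p = 0.184), and the calcium channel Orai1 was at -0.05. The calcineurin subunits differed in sign, the catalytic subunit Ppp3ca at -0.35 and the regulatory subunit Ppp3r1 at 0.28 (limma adjusted p of 0.246 and 0.211), with Ppp3cb at -0.03 and Ppp3cc at -0.13. Rcan1, a calcineurin inhibitor that NFAT itself induces, was at 0.04 (limma adjusted p = 0.913). The scaffold protein Homer3, which competes with calcineurin for NFAT, was at -0.37. The kinases that return NFAT to the cytoplasm were at 0.23 (Dyrk1a), 0.09 (Csnk1a1), -0.22 (Gsk3a) and -0.0028 (Gsk3b).

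The factors through which receptor signals reach the Egr and Nr4a promoters also gave 0 calls, in 14 tested of 23 listed (8 positive and 6 negative values, median 0.03, with 1 higher and 1 lower with p under 0.05 before adjustment in limma). Crem, a CREB family member, was at 0.52 (limma adjusted p = 0.239) and Creb1 at -0.24. Srf was at -0.17, and its cofactors Elk1, Elk3 and Elk4 were at 0.07, 0.14 and 0.12. Mef2a, Mef2c and Mef2d, which hold Nr4a1 silent or active depending on their partners, were at 0.18, -0.17 and 0.02. Crebbp, which encodes CBP, was at 0.04 (limma adjusted p = 0.892). Of 5 tested partners of the Nr4a receptors 0 passed in limma (1 higher and 1 lower with p under 0.05 before adjustment, median 0.01). The retinoid receptor Rxra, which pairs with Nr4a1 and Nr4a2, read 6.26, 5.96 and 6.26 in p300-deleted cells against 6.69, 6.44 and 6.84 in controls. These values did not overlap, and the difference was -0.49 (SE 0.14, limma adjusted p = 0.118).

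Of 39 other immediate early genes tested, 2 passed. Jun, the AP-1 subunit, read 12.23, 12.17 and 12.28 in p300-deleted cells against 11.10, 11.05 and 11.66 in controls, with no overlap, and rose by 0.95 (SE 0.16, limma adjusted p = 0.0390). The call was lost without p300-deleted 1, 2 or 3 or control 1 or 2 (adjusted p of 0.0821, 0.125, 0.106, 0.145 and 0.0653), with differences of 0.84 to 0.98 in these fits, and with the 18S covariate (0.127), with a difference of 0.74. These values come from the brightest Jun probe set. When the Jun probe sets were averaged, Jun still passed (limma adjusted p = 0.0437), but the difference was smaller, at 0.65. Of these 39 genes outside the Egr and Nr4a families, 2 rose and 37 did not pass, where 0.991% of all tested genes rose. There were 25 positive and 14 negative values (median 0.11). Before adjustment 6 were higher and 2 lower at p under 0.05 in limma, where 18.1% of all tested genes had such a p in either direction. The other that rose was Rgs1, a brake on G-protein signalling, by 0.60 (limma adjusted p = 0.0459), which passed without control 2 but not without any other single array (adjusted p up to 0.218). Its call was also lost with median centring (adjusted p = 0.0625) and the 18S covariate (0.131), while its difference stayed between 0.53 and 0.67. Fos, the partner of Jun, was at 0.31 (adjusted p = 0.186), and Btg2, an antiproliferative factor, was at 1.34 (adjusted p = 0.0810). Whether Jun differed from Egr1 or Nr4a1 in its response was not tested.

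Genes listed as downstream of the 3 families were read to see whether targets moved where the factors gave no call. The lists share members, and many of their genes answer to other signals as well. Beside the counts below, 0.991% of all tested genes rose, 0.726% fell and 18.1% had an unadjusted p under 0.05 in limma. Of 20 tested genes downstream of Egr factors 0 passed in limma, with 11 positive and 9 negative values (median 0.03), of which 4 higher and 3 lower had an unadjusted p under 0.05. The largest differences were in the cell cycle inhibitor Cdkn1b (1.34, limma adjusted p = 0.0715) and the transcription factor Zbtb16 (-0.97, adjusted p = 0.188). Id3, an inhibitor of E proteins induced through Egr1, was at -0.57 (adjusted p = 0.111), and the diacylglycerol kinases Dgka and Dgkz, which dampen receptor signals, were at 0.31 and 0.01. The ubiquitin ligase Itch was at 0.07.

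Of 18 tested genes downstream of Nr4a factors 0 rose, 1 fell and 17 did not pass, with 14 positive and 4 negative values (median 0.13). Over all tested genes 3905 values were positive and 4770 negative. Before adjustment 0 of the 18 were higher and 2 lower at p under 0.05 in limma. The gene that fell was Foxp3, at 2.57, 3.04 and 3.15 in p300-deleted cells against 9.63, 9.35 and 9.39 in controls, by its 1 probe set. Nr4a1 thus read 10.14 to 10.46 on the same 3 arrays on which the Foxp3 probe set read no higher than the brightest bacterial controls. The exhaustion factor Tox was at 0.67, the inhibitory receptor Havcr2 at -0.87 and the ectonucleotidase Nt5e at 0.62, with limma adjusted p of 0.305, 0.213 and 0.297. Pdcd1 was at 0.03, Batf at 0.00 and Tnfrsf9 at 0.05.

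Of 25 tested genes downstream of NFAT, 1 rose, 1 fell and 23 did not pass, with 16 positive and 9 negative values (median 0.05). Before adjustment 4 were higher and 2 lower at p under 0.05 in limma. Foxp3 was again the gene that fell. Il21, a cytokine of helper T cells, read 5.63, 5.99 and 5.91 in p300-deleted cells against 4.58, 5.20 and 4.62 in controls and rose by 1.04 (SE 0.18, limma adjusted p = 0.0393). Its call was lost without p300-deleted 1, 2 or 3 or control 1 (adjusted p of 0.0577, 0.147, 0.107 and 0.147), with a further quantile normalization (0.0501) and with the 18S covariate (0.127), and the difference was 0.94 to 1.15 in these 6 fits. Il2, the classical NFAT target, was at 0.56 (adjusted p = 0.198), Il4 at -0.39, Ifng at -0.21, Tnf at -0.05 and Cd40lg at 0.00.

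**Figure D3:**
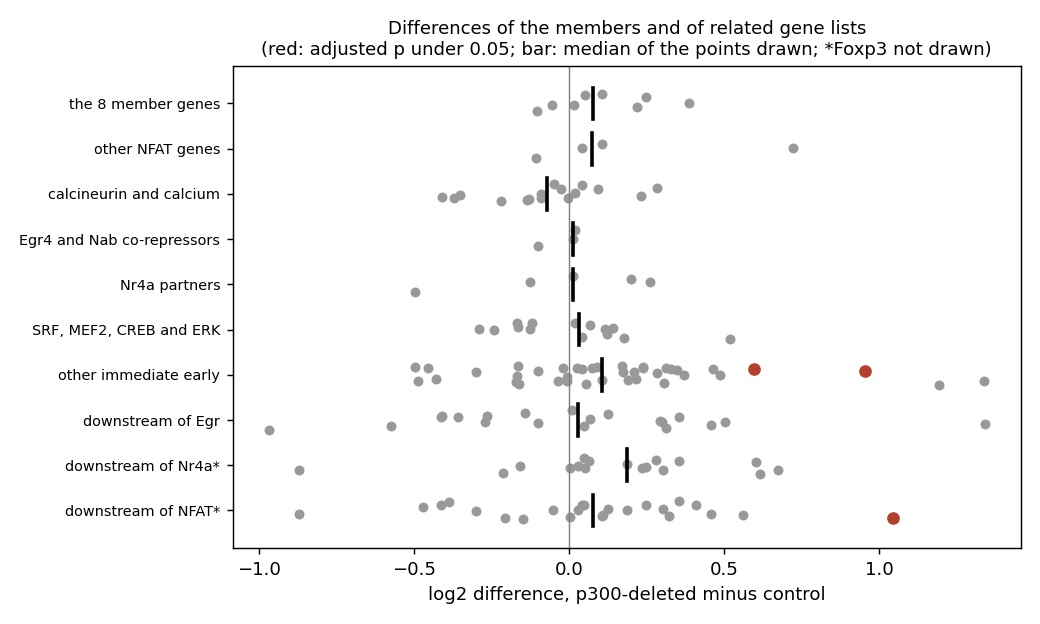
Log2 differences between p300-deleted and control arrays (x axis) for the 8 members and for the tested genes of each related list (rows), 1 point a gene, with the vertical position within a row chosen only to separate points. Red points passed at an adjusted p under 0.05 and the black bar is the median of the points drawn. Foxp3, whose p300-deleted values are no higher than bacterial controls, is left out, the points of the 8 members lie between -0.10 and 0.39, and the red points are Jun, Rgs1 and Il21.

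For every member the range of the 3 controls was wider than the difference between the group means, and members shared part of this variation. Egr1 and Egr2 were above their own means, and Egr3 below its mean, on p300-deleted 1 and 2 and control 3, while on p300-deleted 3 and controls 1 and 2 the signs were the opposite. Over the 6 arrays Egr2 and Egr3 correlated at r = -0.94 (Spearman's rho = -0.77), and at r = -0.94 after the group means were removed. Among the 28 pairs of members this was the strongest relation by Pearson's r, while by Spearman's rho that of Egr1 and Nr4a2 was the strongest (0.94), and both are given as a description of 6 arrays. Leaving out the 2 arrays farthest from the median of Egr2 gave r = -0.99. On the same arrays the 18S control probe sets averaged 7.74, 9.47 and 7.91 in p300-deleted 1 to 3 and 5.68, 6.03 and 8.69 in controls 1 to 3, and their part in the pattern was tested only through the covariate, which reversed the signs of Egr2 (-0.12) and Egr3 (0.19). Controls 1 and 2 read lower for 18S than every p300-deleted array, so the covariate partly overlaps the genotype. With 6 arrays, a call lost or a sign reversed with it cannot be assigned to either.

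Nr4a1, Nr4a2 and Nfatc1 shared their lowest array, control 2, with Egr1. Of all tested genes 18.8% were lowest on that array. Nr4a1 and Nfatc1 correlated at r = 0.83 (Spearman's rho = 0.83), which dropped to 0.26 without the 2 arrays farthest from the median of Nr4a1. Control 2 had the highest 3′ minus 5′ difference of Gapdh (0.59) and of actin (0.46, with p300-deleted 2 next at 0.43). The part of RNA quality in these values was not tested. In 7 of the 8 members the SD was larger in the controls, as it was in 70.0% of tested genes.

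**Figure D4:**
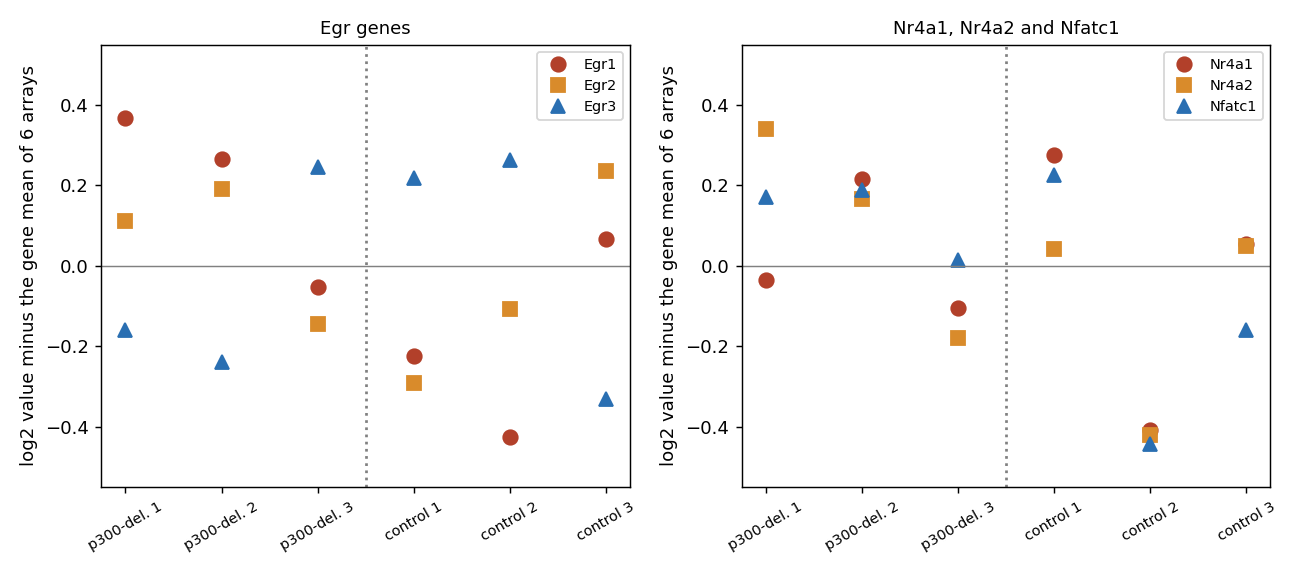
Log2 value of each array minus the mean of the gene over all 6 arrays (y axis), for the Egr genes on the left and for Nr4a1, Nr4a2 and Nfatc1 on the right, with a dotted line between p300-deleted and control arrays. Egr3 lies opposite to Egr2 on every array (r = -0.94), and control 2 is the lowest array for the 3 genes on the right.

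The genes most alike to a member in their values over the 6 arrays, by Pearson's r among the 8667 other tested genes, are named here as a description, and none of them passed the test. Those of Egr1 were Ppp2cb (0.997), a catalytic subunit of protein phosphatase 2A, the ubiquitin ligase Cop1 (0.997) and the salt-inducible kinase Sik1 (0.990), and Sik1 differed by 0.71 (limma adjusted p = 0.188). Those of Egr2 were Gtf3c4, Kiss1r and Snx21 (0.994, 0.986 and 0.976), and those of Egr3 were Kif16b, Atp6ap1 and Pex14 (0.995, 0.990 and 0.986). For Nr4a1 they were Swsap1, Brox and Ubap2l (0.979, 0.972 and 0.969), for Nr4a2 Nmur1, Copz1 and Anapc4 (0.991, 0.990 and 0.986), and for Nr4a3 Eif5b, Tpcn1 and Slc35a2 (0.988, 0.985 and 0.979). For Nfatc1 they were Smap2, Tial1 and Tpsab1 (0.987, 0.983 and 0.982), and for Nfatc3 Rbm15b, Cbx3 and Ythdf1 (0.980, 0.974 and 0.971). With 6 arrays such values are easily reached, and 164 genes exceeded 0.9 with Egr1 alone.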

How the data were processed

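Each of the 6 samples has 1 array. The authors' deposited values are log2 signals, 1 per probe set and array, from RMA per the submitters' processing notes (version not given in the sources used here). RMA corrects background, quantile-normalizes the arrays and summarises probes, so it hides a change in total RNA per cell and shrinks the differences of dim probe sets. Probe sets were named by the platform annotation (20380 with 1 symbol that are not controls, 691 with several), and gene IDs were matched to RefSeq (20351 probe sets, 0 symbols updated). Each gene was read by its brightest probe set (mean of the 6 arrays), and the dimmest 30% of genes (below 3.91) were left out, which left 8675.

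The 2 genotypes were compared in R 4.3.3 with limma 3.58.1 (lmFit, eBayes), without covariates. Tests are two-sided, and p-values were adjusted over all tested genes by the Benjamini-Hochberg method. A second fit covered all 22626 probe sets that are not controls. The fit was tested on simulated data. The members and lists were chosen with earlier results of these data known, so lists are described by counts and medians only. Genes named were all members, from each list the genes past the threshold and those with the largest differences, any gene of the calcineurin and NFAT lists, Foxp3, Crebbp and the 3 genes most alike to each member. Cd3d, Cd3e, Cd3g and the other named list genes outside this rule were chosen after their values were seen. Precision is limited by having 3 arrays in each group. Alternatives were the dim filter, normalization, probe set choice, variance model, array weights, replicate block, 18S covariate, threshold and leaving out each array.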

Additional observations from a re-analysis of the deposited data

How the results depend on the processing

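Under every one of the 16 alternatives run for the count, 0 members were called higher and 0 lower. The dim filter, variance model, replicate block and threshold leave the difference of a gene as it is, so only the remaining alternatives could change a direction. Egr1, Nr4a2, Nfatc1 and Nfatc3 kept their direction under all of theirs, with Egr1 from 0.22 to 0.52 (lowest limma adjusted p = 0.0685), Nr4a2 from 0.06 to 0.36, Nfatc1 from 0.04 to 0.43 and Nfatc3 from -0.36 to -0.03. The differences of the other 4 are small against their SE and changed sign. With the 18S covariate Egr2 was at -0.12, Egr3 at 0.19 and Nr4a1 at -0.038. With array weights Nr4a1 was at -0.11 and Nr4a3 at -0.11. Nr4a3 was at -0.013 after a further quantile normalization, at -0.0067 after median centring and at -0.10 by its dim probe set, which carries no usable level. Leaving out 1 array at a time gave -0.01 to 0.25 for Egr2 (negative without control 1, at -0.012), -0.29 to 0.00 for Egr3 (positive without control 2, at 0.0049), -0.14 to 0.20 for Nr4a1 (-0.04 without p300-deleted 2, -0.14 without control 2) and -0.08 to 0.12 for Nr4a3 (-0.0050 without p300-deleted 2, -0.084 without control 3).

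The number of all genes called, 149, was 95 with the mean of all probe sets, 1019 with array weights, 15 with the 18S covariate, 399 at an adjusted p under 0.1 and 9 to 230 when 1 array was left out (lowest without control 1, highest without control 3). The cause was not tested. With the replicate number as a block it was 98 genes, 0 members passed, and Rgs1 and Izumo1r lost their calls (limma adjusted p of 0.0707 and 0.0703). The titles give both groups the numbers 1 to 3, and nothing says that these numbers pair samples. Same-numbered samples had correlations of their deviations from the group means of -0.07, 0.12 and -0.12, and not every sample correlated best with its own number. With 3 samples in each group, such values cannot decide whether same-numbered samples were handled together.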

Other observations

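A few genes of the lists with large differences that did not pass the test are given by array, chosen after their values were seen. Tnfaip3, the NF-kB inhibitor A20, read 7.80, 7.62 and 6.27 in p300-deleted cells against 6.71, 4.66 and 6.75 in controls, a difference of 1.19 (SE 0.58, limma adjusted p = 0.328). Btg2 read 10.20, 10.83 and 10.65 against 9.10, 8.59 and 9.98, and Cdkn1b read 9.68, 10.03 and 9.58 against 8.59, 7.67 and 9.01. For Btg2 and Cdkn1b the groups did not overlap. Tox read 7.40, 7.22 and 7.41 against 6.85, 5.84 and 7.33. These 4 genes, all with positive differences, were lowest on control 2. Of those with negative differences, Zbtb16 read 5.34, 3.93 and 4.16 against 5.51, 5.74 and 5.09, and Havcr2 read 3.93, 3.46 and 3.73 against 4.56, 3.83 and 5.34, and both were lowest on p300-deleted 2.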
